A study of Homo sapiens with 15 samples.

Results

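Granins and neuropeptides are cargo of the dense-core vesicles of neuroendocrine cells, and 9 genes that encode them were followed in IMR32 cells in which the homeobox gene MSX1 could be switched on. The genes are those of the granins CHGA, CHGB, SCG2, SCG3, SCG5 and VGF and of the neuropeptides NPY, GAL and VIP. They were taken by name, as every probe set that the platform annotation pairs with that symbol alone, which gave 10 probe sets for 9 of 19775 annotated genes. GAL had 2 probe sets and every other gene had 1. IMR32 is an established human neuroblastoma line, derived from the sympathetic lineage that also gives rise to chromaffin cells. All cells had been transfected with an inducible MSX1 gene and were grown in medium with fetal calf serum. There were 5 groups of 3 arrays: cells at t = 0, doxycycline-induced cells at t = 8, at t = 24 and at t = 48, and controls at t = 48 that received no doxycycline. The labels give no unit of time and do not say whether the line was 1 clone or whether replicates were separate cultures, and the p-values therefore rest on a spread between arrays that may be technical. Cells without the construct were not analysed here, so the effect of doxycycline itself and that of MSX1 cannot be told apart.

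Granins are acidic proteins that condense in the trans-Golgi network and help to form dense-core vesicles, where they are stored with hormones and amines until a calcium signal releases them. Several granins and all neuropeptides are made as precursors that are cut into shorter peptides inside the vesicle. In sympathetic neurons and chromaffin cells these vesicles also carry noradrenaline or adrenaline, and chromogranin A is a long-used blood marker of neuroendocrine tumours.

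The promoter of SCG3, which rose at t = 48, is shown from the RefSeq promoter table of GRCh38.p14, which holds 250 bases before and 50 after each gene's start. The table matched 6 of the 9 genes, and the promoters of SCG3, SCG5, VGF, NPY and VIP are described. CHGB, SCG2 and GAL were not matched. Capitals mark matches on either strand to 4 kinds of sequence. These are the cyclic AMP response element (CRE, TGACGTCA), its short core (TGACG, present on both strands of the full element), the core bound by MSX-type homeodomains (TAATTG), and the left (TTCAGCACC) and right (GGACAGCGC) parts of the RE1 element bound by the repressor REST. The RE1 parts were added after the SCG3 promoter had been read. The SCG3 promoter (chr15:51681253-51681552, plus strand) has both RE1 parts just after the start site, separated by 8 bases, and a CRE core just before it.
SCG3: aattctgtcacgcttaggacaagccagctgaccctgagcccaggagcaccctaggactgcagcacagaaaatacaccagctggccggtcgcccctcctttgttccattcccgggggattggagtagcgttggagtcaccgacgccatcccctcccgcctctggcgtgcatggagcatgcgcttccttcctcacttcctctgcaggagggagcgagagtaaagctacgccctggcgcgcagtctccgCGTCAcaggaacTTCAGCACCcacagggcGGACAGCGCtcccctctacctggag

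The same letters occur in the other promoters as follows, shown as windows of 50 bases. VGF (chr7:101165620-101165669, minus strand) has a full CRE that begins 79 bases before the start, and a right RE1 part on the opposite strand (chr7:101165550-101165599, minus strand). VIP (chr6:152750695-152750744, plus strand, and chr6:152750647-152750696, plus strand) has a pair of CRE cores and 1 homeodomain core. SCG5 (chr15:32641460-32641509, plus strand) has 1 homeodomain core at the far end of its promoter. Its 1 CRE core begins 17 bases before the start, outside the window shown.
VGF, CRE: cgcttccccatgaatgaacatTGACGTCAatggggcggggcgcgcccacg
VGF, RE1: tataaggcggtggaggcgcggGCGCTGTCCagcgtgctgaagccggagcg
VIP, CRE cores: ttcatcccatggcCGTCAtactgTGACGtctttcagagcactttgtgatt
VIP, homeodomain core: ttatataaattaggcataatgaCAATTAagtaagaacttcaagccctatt
SCG5, homeodomain core: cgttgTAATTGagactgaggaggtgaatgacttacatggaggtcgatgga

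Of 35116 promoters of this length, 1.85 percent hold the full CRE, 24.6 percent its core and 7.38 percent the homeodomain core. The left RE1 part is in 0.376 percent and the right in 0.581 percent. Both RE1 parts on 1 strand, in any order and at any distance, are in 6, SCG3 among them. As the RE1 parts were chosen after the SCG3 promoter had been read, these shares do not measure how unusual that promoter is. In the NPY window none of the 5 motifs was matched. A match describes the sequence and does not show that a factor binds there.

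Signals are MAS5 intensities on a linear scale, with the 2 percent trimmed mean of every array at 100.01, and array medians between 18.1 and 22.6. The targeted gene was checked first. On the brighter of its 2 probe sets, MSX1 read 67.7 to 96.9 in induced cells at t = 48, against 46.5 to 55.5 in control cells (log2 fold change 0.65, SE 0.15, limma adjusted p = 0.0165). On that probe set it read 95.5 to 121.5 at t = 0, 140.1 to 184.1 at t = 8 and 142.2 to 182.3 at t = 24. Against t = 0 the value at t = 8 was 0.515 and did not pass (limma adjusted p = 0.128). At t = 24 it was 0.555 (adjusted p = 0.0299), a call lost without any 1 of 4 of the 6 arrays (up to 0.11). Control cells at t = 48 lay below t = 0 (-1.05, adjusted p = 0.00501). Induced cells at t = 48 were not above t = 0 on this probe set (-0.40, limma adjusted p = 0.0777, not passed). They had fallen from t = 24 (-0.955, adjusted p = 0.0021). The dimmer probe set overlapped, at 9.2 to 20.2 in induced cells at t = 48, against 9.1 to 28.4 in control cells. The call against control was lost without any 1 of 4 of the 6 arrays (highest adjusted p = 0.0642), and the position of the probe set relative to the construct is not known here. The BioC hybridisation control read 87.6 on induced t = 24 replicate 1 and 98.9 on induced t = 48 replicate 3, against 346.3 to 429.6 on the other arrays. Sympathetic neuroblastoma markers were uneven. MYCN (4333.8 to 5715.9) and GATA3 (3085 to 3745.9) were bright, and HAND2 (63.8 to 140.9) was lower but above the array medians. GATA2 (16.9 to 65.5), DBH (6 to 99.2) and STMN2 (6.2 to 91.2) lay under the array median on some arrays. TH, the first enzyme of catecholamine synthesis, read 0.8 to 11.9. Of 13 such markers 12 had a probe set, and their sum, carried by the brightest, was 13084.4 to 14362.5 in induced cells at t = 48 and 13444.2 to 14045.7 in control cells. Of 11 tested, 4 were higher in induced than in control cells at t = 48 (PHOX2A 0.70, HAND1 0.49, DDC 0.74 and STMN2 1.67) and 2 lower (ISL1 -1.20 and CHRNA3 -0.62), and their part in the members' values was not tested. Schwann cell markers (3 of 6 with a probe set, S100B at 0.1 to 4.8) summed to 13 to 31.6 over all arrays. Epithelial ones (5 of 5, CDH1 at 0.3 to 8.7) summed to 34.3 to 83, with KRT8 at 14.8 to 31.9 and KRT18 at 9.6 to 41. Blood and endothelial ones (6 of 6, PTPRC at 0.3 to 9.4) summed to 73 to 159.7. Of these, CD34 read 12 to 44.1, PECAM1 15.5 to 42.1 and HBB 14.2 to 51. KRT8, KRT18, CD34, PECAM1 and HBB reached the array median on 3 or more arrays.

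CHGA, CHGB and SCG3 were higher, and GAL lower, in induced than in control cells at t = 48. CHGB stood 2.31-fold, SCG3 1.96-fold and CHGA 1.87-fold above control, while GAL stood at 0.693 of control. SCG2, VGF and NPY did not pass the test at this time, and SCG5 and VIP stayed under the array median on all 15 arrays and were not tested. Thus 4 of the 7 members tested passed, where 8.55 percent of all 12880 genes did, 5.26 percent higher and 3.28 percent lower. The arrays of both groups did not overlap for 5 of 7 members, including NPY, where 31.2 percent of all genes did not overlap. Fold changes here and below are on the scale of log2(signal + 5.16), which understates changes of dim genes, and a gene passed at an adjusted p under 0.05 in limma with Benjamini-Hochberg adjustment over all genes.

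Chromogranin A (CHGA), the soluble granin that drives granule formation and is cut into vasostatins and catestatin, had a signal of 1394.6, 1323.6 and 1249.5 at t = 0. In induced cells it read 1539.2, 1243.8 and 1523.4 at t = 8, then 2054.1, 1591.5 and 1628.1 at t = 24, and finally 1983.6, 1995.9 and 2508.6 at t = 48. In control cells at t = 48 it read 1087.2, 1208.9 and 1152.2. Every induced array at t = 24 and t = 48 lay above every array at t = 0 and every control array, and t = 24 overlapped t = 48. The difference at t = 48 was 0.90 against control (SE 0.13, adjusted p = 0.000724) and 0.70 against t = 0 (adjusted p = 0.00255). At t = 24 it was 0.40 against t = 0 and did not pass (adjusted p = 0.0614). It passed with quantile normalization (0.47, adjusted p = 0.0457), a stricter filter (0.0352) or an intensity trend (0.0225). Over all processing settings tried, with these included, it lay between 0.28 and 0.47 with adjusted p up to 0.144, or 0.214 with single arrays left out. Control cells at t = 48 were 0.20 below t = 0, without overlap of the arrays, and did not pass (adjusted p = 0.606).

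Chromogranin B (CHGB), another major soluble granin of chromaffin granules, followed another course. It read 106.2, 91.9 and 96.4 at t = 0, then 116.6, 101.8 and 106.7 at t = 8 and 89.2, 98.9 and 103.3 at t = 24. In induced cells at t = 48 it read 220, 223 and 218.6, against 99.6, 85.5 and 92.5 in control cells. The first 3 time points overlapped each other, and the 3 induced arrays at t = 48 formed a tight group far above them and the control arrays. CHGB differed by 1.21 from control (SE 0.09, adjusted p = 3.06e-06), by 1.13 from t = 0 (adjusted p = 3.36e-06) and by 1.14 from t = 24 (adjusted p = 9.51e-06). The difference between t = 24 and t = 0 was -0.01 (95 percent interval -0.20 to 0.17), and it turned to 0.04 without t = 0 replicate 1 or induced t = 24 replicate 1.

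Secretogranin III (SCG3), which binds chromogranin A and cholesterol-rich granule membrane, read 209.8, 148.7 and 190.1 at t = 0. It read 209.7, 189.9 and 228.2 at t = 8, and 203.5, 205.9 and 239.3 at t = 24. At t = 48 it read 317.6, 359.5 and 314.1 in induced cells, against 163, 147.8 and 188.9 in control cells. The induced arrays at t = 48 were above every other array of the study, and those at t = 8 and t = 24 overlapped t = 0. The difference was 0.97 against control (SE 0.13, adjusted p = 0.000596) and 0.85 against t = 0 (adjusted p = 0.00105). Against t = 24 it was 0.60 (adjusted p = 0.0215). Leaving out replicate 1 or 2 of the induced arrays at t = 24 gave 0.56 and 0.57 (adjusted p = 0.0715 and 0.0865), and leaving out replicate 1 or 2 at t = 48 gave 0.63 and 0.54 (adjusted p = 0.0542 and 0.0987), none of which passed. The call was also lost with median centring (adjusted p = 0.164), no filter (0.0508), only the groups compared (0.0511) or both arrays with weak hybridisation controls left out (0.121).

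**Figure D1:**
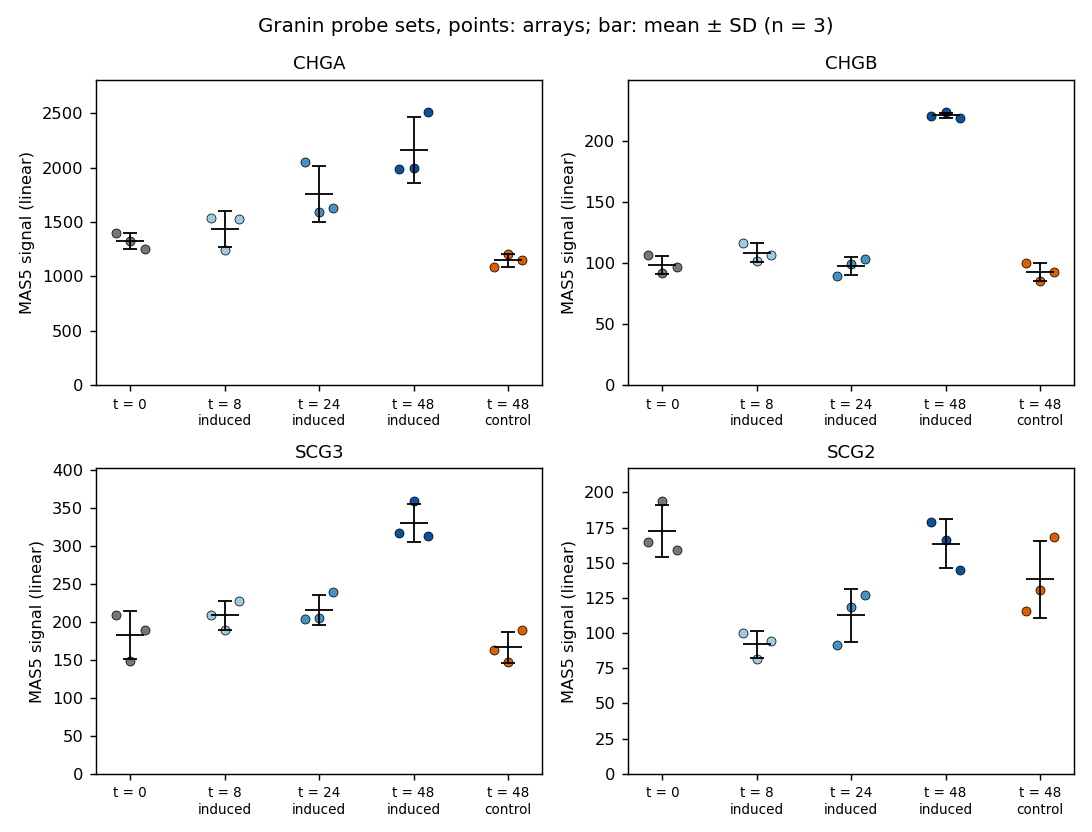
MAS5 signal on a linear axis for CHGA, CHGB, SCG3 and SCG2 by group, with a point for each array and a bar for the mean ± SD of 3 arrays. CHGB reads 218.6 to 223 in induced cells at t = 48 and 85.5 to 116.6 on every other array, whereas SCG2 reads 81.6 to 99.7 at t = 8 and 159.2 to 193.8 at t = 0.

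Secretogranin II (SCG2), the precursor of the peptide secretoneurin, dipped early and at t = 48 stood at -0.08 from t = 0 (95 percent interval -0.41 to 0.26). It read 164.4, 193.8 and 159.2 at t = 0, then 99.7, 81.6 and 94.5 at t = 8 and 91.5, 118.6 and 127.4 at t = 24. In induced cells at t = 48 it read 179.2, 166.2 and 144.9, against 115.5, 130.7 and 168.2 in control cells. All arrays at t = 8 and t = 24 lay below all arrays at t = 0, and at t = 48 induced arrays overlapped both control and t = 0. SCG2 fell at t = 8 (-0.87, SE 0.15, adjusted p = 0.00924) and at t = 24 (-0.60, adjusted p = 0.0252) against t = 0. SCG2 was the 1 of 7 members tested to pass at t = 8, where 2.1 percent of all genes passed and 0.994 percent were lower. Its call there was kept without any single array of the compared groups and lost when only those groups were fitted (adjusted p = 0.0556). At t = 24 the test was no longer passed without t = 0 replicate 2 (-0.52, adjusted p = 0.0928) or induced t = 24 replicate 1 (-0.47, adjusted p = 0.101). Nor was it with median centring (adjusted p = 0.0833), no filter (0.0536), only the groups compared (0.0886) or both arrays with weak hybridisation controls left out (0.0923). From t = 24 to t = 48 the value was 0.53 with no overlap of the arrays (adjusted p = 0.0876, not passed), and it passed with a stricter filter (adjusted p = 0.0476). Against control at t = 48 the difference was 0.25 (95 percent interval -0.09 to 0.58, adjusted p = 0.363). Control cells at t = 8 and t = 24 were not analysed here, so induction and time in culture cannot be told apart there.

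VGF, a granin-like protein first known as a gene induced by nerve growth factor, ranged from 25.4 to 68.5 over the 15 arrays. Its groups overlapped in all 7 comparisons, and it was the 1 member tested that did not pass in any of them. It averaged 40.4 ± 3.47 in induced and 35.9 ± 9.6 in control cells at t = 48 (SD, n = 3 each). The difference was 0.17 (95 percent interval -0.25 to 0.60, adjusted p = 0.638), and turned to -0.03 without control replicate 2. The suffix of its probe set, _x_at, marks probes that may also hybridise to other sequences.

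SCG5, the chaperone 7B2 that helps prohormone convertase 2 to mature, read 1.6 to 15.8, and VIP, vasoactive intestinal peptide, read 0.2 to 17.1. Both lay under the array median on 15 of 15 arrays. SCG5 read 13, 11.2 and 14.1 in induced cells at t = 48, against 11.6, 4.7 and 2.1 in control cells. With no filter on low signals and 1 probe set per gene, SCG5 gave 0.75 against control (adjusted p = 0.356) and VIP 0.03 (adjusted p = 0.986). At these signals the array does not show whether the genes were expressed or differed.

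Of the neuropeptides, galanin (GAL), a peptide that modulates neurotransmitter and hormone release, fell. Its brighter probe set gave 1505.5, 1338.3 and 1410.9 at t = 0, then 1330.2, 1129.2 and 1174.7 at t = 8, followed by 912.2, 807.5 and 801.3 at t = 24. At t = 48 it read 887.3, 847.4 and 981.4 in induced cells, against 1320.3, 1312 and 1285.4 in control cells. Induced arrays at t = 24 and t = 48 overlapped each other and lay below every array of the other groups. GAL fell by 0.53 on the log2 scale against control (SE 0.09, adjusted p = 0.00275), and against t = 0 by 0.75 at t = 24 (adjusted p = 0.000145) and 0.65 at t = 48 (adjusted p = 0.000399). The value at t = 8 was -0.23, with no overlap of the arrays, and did not pass (adjusted p = 0.355). The dimmer probe set read 25.3 to 49.4 with overlapping groups throughout, gave -0.17 against control at t = 48 (95 percent interval -0.57 to 0.23) and did not pass, so the fall of GAL rests on 1 of its 2 probe sets.

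Neuropeptide Y (NPY), a cotransmitter of noradrenaline in sympathetic neurons, had a dip at t = 24. It read 67.5, 84.4 and 75.3 at t = 0, then 89.4, 76.7 and 69.3 at t = 8, followed by 43.2, 44.1 and 46.5 at t = 24. At t = 48 it read 70.1, 61.9 and 65.3 in induced cells, against 77.7, 79.5 and 71.3 in control cells. The arrays at t = 24 lay under every other array of the study, and induced arrays at t = 48 lay under control arrays by a narrow margin. NPY fell at t = 24 by 0.70 against t = 0 (SE 0.10, adjusted p = 0.000814) and by 0.74 against t = 8 (adjusted p = 0.00141), and rose by 0.51 from t = 24 to t = 48 (adjusted p = 0.0115). The last call did not hold with both arrays with weak hybridisation controls left out (0.49, adjusted p = 0.0908) or with induced t = 48 replicate 1 left out (0.47, adjusted p = 0.0554), nor that against t = 8 when only those groups were fitted (adjusted p = 0.0529). Against control at t = 48 the difference was -0.20 (95 percent interval -0.42 to 0.02, adjusted p = 0.261).

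**Figure D2:**
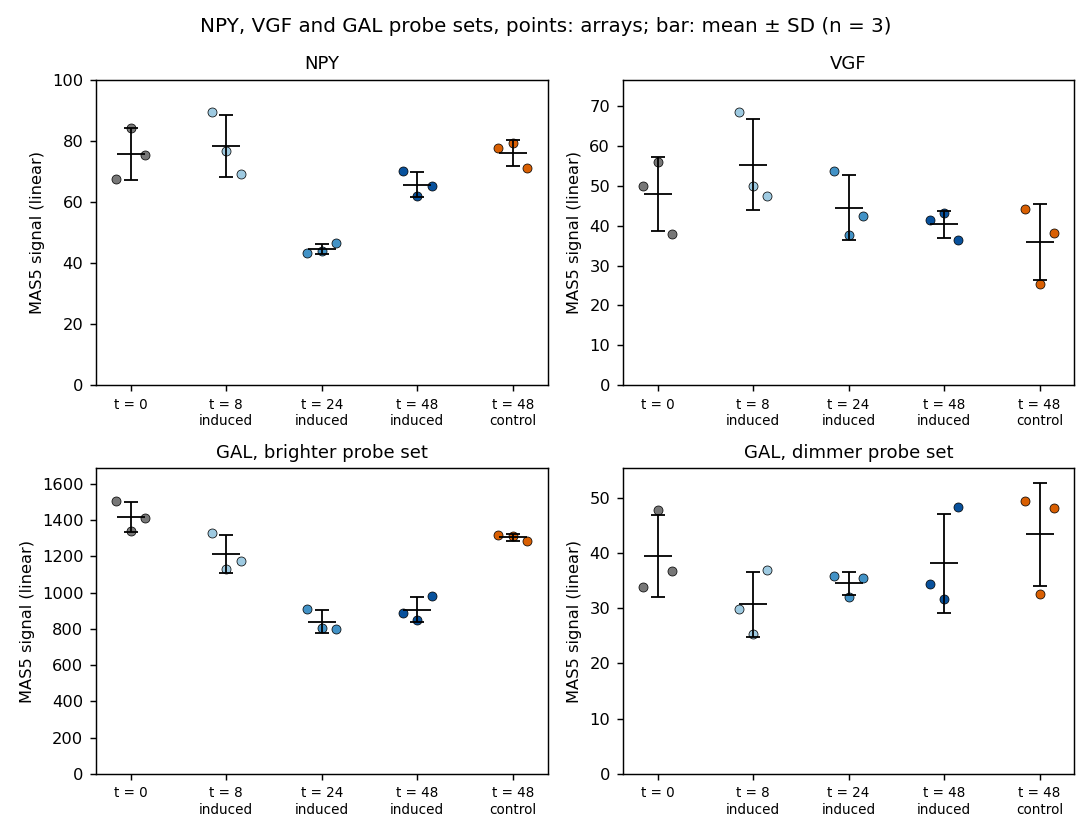
MAS5 signal on a linear axis for NPY, VGF and both GAL probe sets by group, with a point for each array and a bar for the mean ± SD of 3 arrays. NPY is lowest at t = 24, at 43.2 to 46.5, and at t = 48 the brighter GAL probe set reads 847.4 to 981.4 in induced cells, against 1285.4 to 1320.3 in controls, while the dimmer one overlaps throughout.

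Over the induced time course, 6 of the 7 members tested changed by a moderated F-test on the differences from t = 0, all except VGF, where 20.1 percent of all genes did. Adjusted p lay between 4.6e-06 for CHGB and 0.00606 for CHGA among these, and was 0.441 for VGF. The steps differed between members. Against t = 0, 1 member passed at t = 8, namely SCG2. At t = 24, 3 passed, SCG2, NPY and GAL, each lower, where 10.8 percent of all genes passed and 4.87 percent were lower. At t = 48, 4 passed, CHGA, CHGB and SCG3 higher and GAL lower, where 18.1 percent passed, 9.9 percent higher and 8.2 percent lower. Between t = 8 and t = 24, NPY and GAL fell, where 6.27 percent of all genes passed and 2.83 percent were lower (GAL by 0.52, adjusted p = 0.00501, and 0.091 when only those groups were fitted). Between t = 24 and t = 48, CHGB, SCG3 and NPY rose, where 3.99 percent passed and 2.38 percent were higher, and CHGA gave 0.30 (adjusted p = 0.281). Arrays did not overlap for 2 of 7 members at t = 8, 4 at t = 24 and 4 at t = 48, each against t = 0, where this held for 14.3, 30.3 and 37.2 percent of all genes. It held for 3 members between t = 8 and t = 24 and for 4 between t = 24 and t = 48, beside 27.8 and 19.9 percent of all genes.

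In control cells between t = 0 and t = 48, 0 of 7 members passed by limma, where 0.846 percent of all genes did. All 7 adjusted p-values lay between 0.467 and 0.985, and 0 of 7 unadjusted p-values were under 0.05. Values lay between -0.38 for VGF and 0.01 for NPY, and the arrays of 2 members, CHGA and GAL, did not overlap, where this held for 18.8 percent of all genes. The changes of induced and control cells from t = 0 share the t = 0 arrays, so the direct difference at t = 48 is the test between them. The members' median difference from control at t = 48 was 0.25, beside -0.01 over all genes tested.

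**Figure D3:**
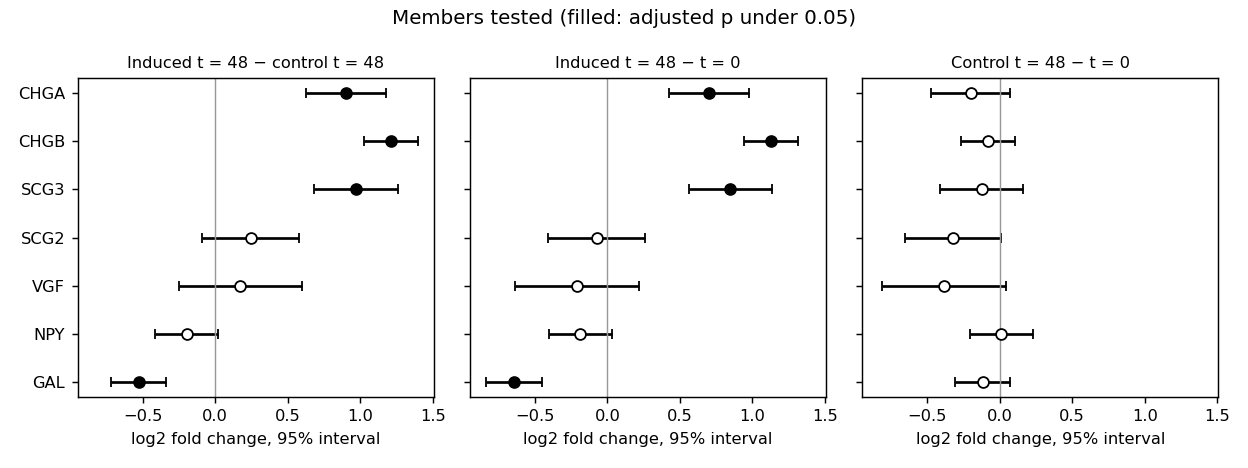
Log2 fold change with its 95 percent interval for the 7 members tested, in induced against control cells at t = 48, in induced cells at t = 48 against t = 0, and in control cells at t = 48 against t = 0. Filled points passed an adjusted p of 0.05, which holds for CHGA, CHGB, SCG3 and GAL in the first 2 panels and for 0 members in the panel of control cells.

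Other measures of the same arrays follow. The summed signal of 10 fibroblast markers, of 10 listed, was 1291.7 to 1432.5 at t = 0, 1721.7 to 1904.1 at t = 8 and 2546.6 to 2597.7 at t = 24. At t = 48 it was 2117.9 to 2178.2 in induced cells, against 1578.5 to 1688.6 in control cells. The sum was carried by the brightest, PDGFRA (694.1 to 1344.8) and COL1A1 (308.3 to 1060). Of 9 tested markers, 3 were higher than control, LUM, COL3A1 and PDGFRA, and 0 lower, beside 8.55 percent of all genes called. The PDGFRA call was lost without any of 5 single arrays (limma adjusted p up to 0.121). The median of the 9 was -0.04 and the lowest value -0.31, and COL1A2 read 1.6 to 25.1 on all arrays. The ratio of 3' to 5' probe sets of ACTB, a sign of RNA integrity, was 1.52, 1.41 and 1.27 in induced cells at t = 48. In control cells it was 1.22, 1.31 and 1.3, so the groups overlapped. The same ratio for GAPDH also overlapped, at 1.03, 0.96 and 1.09 in induced and 1.04, 0.97 and 0.98 in control cells. A control probe set of 18S ribosomal RNA read 703.6 on t = 0 replicate 3 and 69.1 to 178.1 on the other arrays. Without that array the members called against t = 0 were the same. At t = 48 it read 178.1, 169.9 and 82 in induced and 69.1, 91.3 and 70.3 in control cells, with overlap. The part of these measures in the members' values was not tested. In such bulk samples, fewer cells of a type and less RNA per cell cannot be told apart. Without both arrays with a weak hybridisation control, the 4 calls against control at t = 48 remained.

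Counts of the lists that follow stand beside 8.55 percent of all genes called against control at t = 48, and nothing is read from them about a list. Of 40 genes for the membrane and exocytosis of dense-core vesicles, 30 were tested and 3 rose against control at t = 48, with 0 lower and a median of 0.13. Without both arrays with weak hybridisation controls 1 rose. CADPS, which primes dense-core vesicles for release, read 96.3 to 120.3 in induced cells, against 26.9 to 34.6 in control cells (1.72, SE 0.14, adjusted p = 7.38e-06). It had already risen at t = 24 against t = 0 (0.94, adjusted p = 0.00078). Of its other 4 probe sets tested, 1 passed at t = 48 against control (1.57), and 3 gave 0.58, 0.80 and -0.12 and did not. CPLX1, which encodes the fusion clamp complexin 1 (0.49, adjusted p = 0.0321), and PTPRN2, a vesicle membrane protein (0.47, adjusted p = 0.0378), also rose, calls lost when any of 5 single arrays was left out (up to 0.123 and 0.13). Other probe sets of PTPRN2 gave 1.33 and 0.005 and did not pass. Against t = 0 at t = 48, 6 rose and 1 fell, or 5 and 2 without both weak arrays, beside 18.1 percent of all genes called.

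Of 12 prohormone processing genes, 8 were tested, and 1 rose against control at t = 48, CPD, a carboxypeptidase of the trans-Golgi network (0.29, adjusted p = 0.0156). Its call was lost without control replicate 1 or induced replicate 1 or 2 (adjusted p up to 0.0572), and its other 3 probe sets gave -0.15 to 0.23 and did not pass. PAM, which amidates the ends of NPY, VIP and other peptides, did not pass against control, with averages of 692.7 ± 22.4 in induced and 620.7 ± 17.1 in control cells. It rose from t = 24 to t = 48 in induced cells (0.38, adjusted p = 0.00514), although its 2 other probe sets (0.21 and 0.42) did not pass. Control cells at t = 48 (609.9 to 640.5) also lay above t = 0 (497.7 to 532), a difference that did not pass. CPE, which trims basic residues from cut precursors, also did not pass, with 555.7 ± 25.4 in induced and 482.2 ± 39.4 in control cells (SD, n = 3 each).

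Of 40 other precursors of neuropeptides and peptide hormones, 15 were tested against control at t = 48, and 2 were higher and 1 lower (1 and 1 without both arrays with weak hybridisation controls). PYY, the gut relative of NPY, read 44.7 to 58.7 in induced cells, against 24.3 to 30.5 in control cells (0.74, adjusted p = 0.0126), a call lost without control replicate 1 or induced replicate 3 (adjusted p up to 0.0577), and its other probe set gave 0.07. STC1, the glycoprotein hormone stanniocalcin 1, rose (0.62, adjusted p = 0.00497), with 0.28 and 0.25 on its other probe sets, which did not pass. NMU, which encodes neuromedin U, fell, with 152.5 to 159.5 in induced cells, against 201 to 224.3 in control cells (-0.46, adjusted p = 0.00467). Of 10 receptor genes for NPY, GAL, VIP and the related peptide PACAP, 5 were tested and 0 passed against control at t = 48 by limma. ADCYAP1R1, the receptor of PACAP, rose at t = 24 against t = 0 (0.44, adjusted p = 0.00607) and fell from t = 24 to t = 48 (-0.66, adjusted p = 0.000596). Its other probe set gave -0.08 and -0.37 and did not pass.

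Of 18 transcription regulators known for granin or neuropeptide genes, 12 were tested, and 3 were higher and 1 lower against control at t = 48 (1 and 1 without both arrays with weak hybridisation controls). PHOX2A, a homeobox gene of sympathetic neurons that is also in the marker list, read 1542.2 to 1651.8 in induced cells, against 912.5 to 1035.8 in control cells (0.70, adjusted p = 0.000203). JUN, a component of the AP-1 factor, fell on its brightest probe set (-0.64, adjusted p = 0.0345, lost without any of 5 single arrays, up to 0.128), while another of its probe sets rose (0.37, adjusted p = 0.0456). REST, which represses many neuronal genes by way of RE1 elements, averaged 161.2 ± 39.7 at t = 0. Induced cells had 166.9 ± 36.3 at t = 8, 297.6 ± 48 at t = 24 and 172.1 ± 19.9 at t = 48, against 179.4 ± 17 in control cells (SD, n = 3 each). Its rise at t = 24 was 0.88 against t = 0 (adjusted p = 0.0125), lost without induced t = 24 replicate 1 (adjusted p = 0.0556). Its fall to t = 48 was -0.77 (adjusted p = 0.0476), lost without any 1 of the 6 arrays (adjusted p up to 0.168). MYT1 (0.97, adjusted p = 0.0165) and MYT1L (1.26, adjusted p = 0.02), zinc finger genes of neurons, rose against control, each call lost without any of 4 single arrays (up to 0.0664 and 0.0765), and other probe sets of MYT1 gave 0.22 and 0.34 and did not pass. INSM1, a zinc finger repressor of neuroendocrine cells, did not pass against control at t = 48. Against t = 0 it was higher in induced cells at t = 48 (0.91, adjusted p = 0.00201), a call kept without any single array. Its signals in control cells at t = 48 (1333.9 to 1566.9) also lay above those at t = 0 (926 to 1175.5). In induced cells INSM1 rose from t = 24 to t = 48 (0.75, adjusted p = 0.016), a call lost without any of 4 single arrays (up to 0.0687). Its other probe set gave 0.18.

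**Figure D4:**
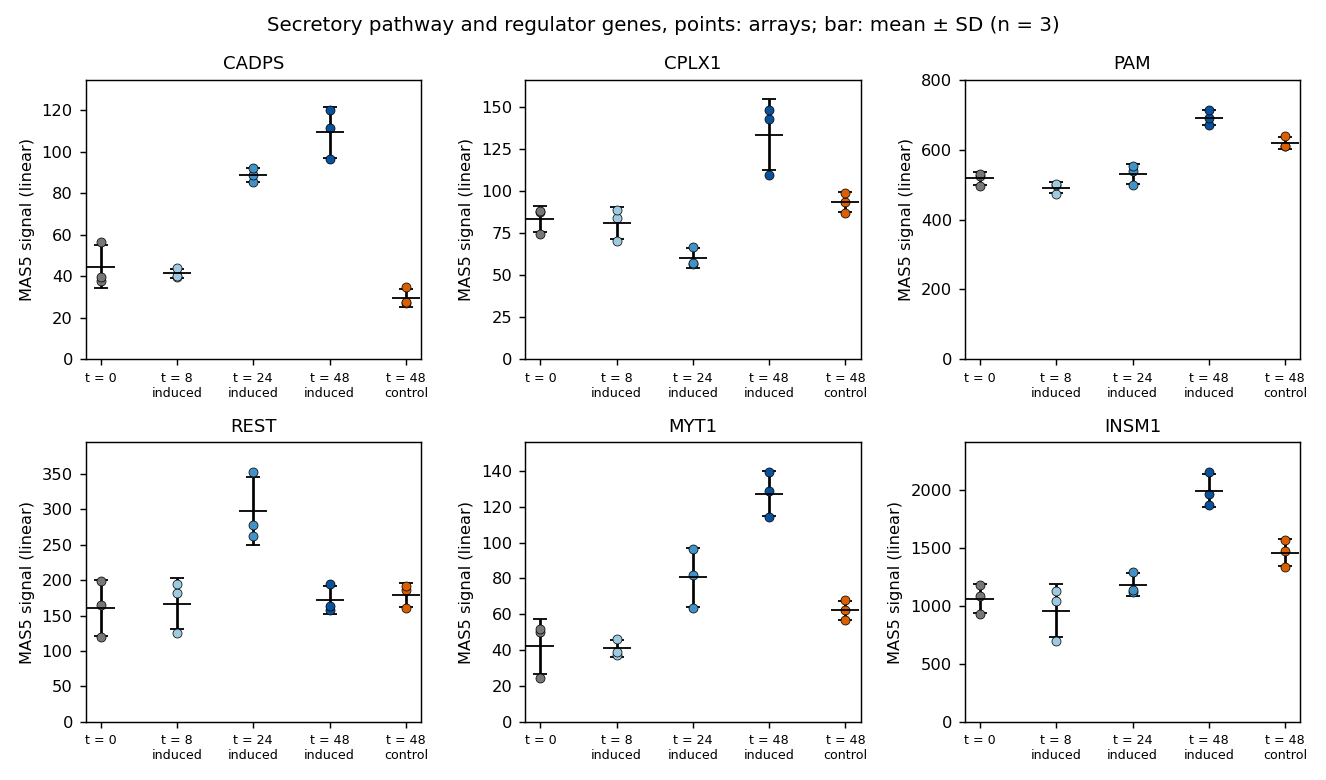
MAS5 signal on a linear axis for CADPS, CPLX1, PAM, REST, MYT1 and INSM1 by group, with a point for each array and a bar for the mean ± SD of 3 arrays. CADPS at t = 48 reads 96.3 to 120.3 in induced cells, against 26.9 to 34.6 in controls, and REST is highest at t = 24, at 262.7 to 352.3.

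The genes whose log2 values were closest in course to each member over the 15 arrays are given as a description, by Pearson correlation against 12879 genes. The arrays fall into 5 groups and share normalization, and the closest of so many genes has a high value by selection. For CHGB these were FRMPD1 (0.94), FNDC5 (0.91) and SIGIRR (0.91), and for SCG3 PRG2 (0.93), RUNDC3A (0.92) and LINC01116 (0.91). For CHGA they were ARFGEF1 (0.94), SULT1C4 (0.94) and FTX (0.93), and for SCG2 ARHGEF10 (0.90), PKIA (0.81) and ERN2 (0.80). For GAL they were RNPS1 (0.96), FABP5 (0.94) and YWHAH (0.93), and for NPY TUBB3 (0.92), DNAJC9 (0.91) and DIAPH3 (0.91).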

How the data were processed

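The deposited table has 1 column for each of 15 Affymetrix arrays and 54675 probe sets, of which 62 are controls. Its values are intensities that the authors computed with MAS5 and GCOS, as the submitters' processing notes name them, in versions not given in the sources used here. A probe set was named where the platform annotation has exactly 1 symbol for it, brought up to date by Entrez identifier with the RefSeq gene table. Signals were put on a log2 scale after adding 5.16, the average lower quartile of the arrays. A probe set was kept if it reached the median of the array on 3 or more arrays. Each gene was represented by its kept probe set of highest mean, for 12880 genes, and other probe sets were tested in a separate fit of all kept ones. The limma package (3.58.1, R 4.3.3) compared the groups, with 1 mean per group, two-sided moderated tests and Benjamini-Hochberg adjustment across genes at 0.05. The procedure was tested on simulated data. Intervals cover 95 percent.

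Members, gene lists and tests were chosen with earlier results of these data known. The members were all described. From each list at most 4 genes per comparison, those with the greatest change among calls, could be named, and for each member with a call the 3 genes of highest correlation. PAM and CPE against control were described after their values were seen. Alternatives were other offsets, scalings, filters, probe set choices, limma options, thresholds and left-out arrays. Same-numbered replicates did not deviate together and were not paired. Figures were drawn with matplotlib 3.10.9. The promoter of 1 member is not reported here.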

Additional observations from a re-analysis of the deposited data

Results flagged for a closer look

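Between t = 0 and t = 48, 4 members changed differently in induced and control cells, as tested by the difference at t = 48. These differences, induced minus control, were 0.90 for CHGA, 1.21 for CHGB, 0.97 for SCG3 and -0.53 for GAL on the log2 scale. Each kept its call in limma under every alternative run, 80 of 80 values over the 4 members.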

How the results depend on the processing

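Against control at t = 48, the calls of CHGA, CHGB, SCG3 and GAL were kept under every alternative run. Apart from single arrays left out, CHGA lay between 0.79 and 0.96, CHGB between 1.13 and 1.25, SCG3 between 0.93 and 1.01, and GAL between -0.59 and -0.48. Fitting only the groups compared left 0 members at t = 8 against t = 0 and 0 between t = 8 and t = 24 (limma). Between t = 24 and t = 48 the count of 3 became 1 at a threshold of 0.01 and 1 without both arrays with weak hybridisation controls, and ranged from 1 to 3 without single arrays. It was 2 (without SCG3) with median centring, with no filter and with only the groups compared, and 4 (with SCG2) with a stricter filter. At t = 24 against t = 0 the count of 3 became 2, without SCG2, in those first 3 settings, at a threshold of 0.01, without both weak arrays and without 1 of 2 single arrays. It became 4, with CHGA, with quantile normalization, a stricter filter or an intensity trend. No scaling moved the median of all genes by over 0.036.

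Values that changed sign had not passed. NPY in control cells against t = 0 became -0.01 with quantile normalization. Without both weak arrays, CHGB at t = 24 against t = 0 became 0.04, SCG2 at t = 48 against t = 0 became 0.01 and VGF between t = 24 and t = 48 became 0.07. Leaving out single arrays gave ranges that cross 0 for 8 values. These were -0.05 to 0.13 for NPY at t = 8, -0.06 to 0.04 for CHGB and -0.24 to 0.02 for VGF at t = 24, and -0.14 to 0.01 for SCG2 at t = 48, each against t = 0. They were -0.06 to 0.09 for NPY in control cells, -0.03 to 0.11 for SCG3 between t = 8 and t = 24, -0.22 to 0.01 for VGF between t = 24 and t = 48, and -0.03 to 0.32 for VGF against control. The cause was not tested.

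With the replicate number as a block, the members called were as many in each comparison (4 against control at t = 48), and 899 genes were called there, against 1101. Same-numbered arrays had deviations that correlated between -0.278 and 0.119, and 0 to 4 of 6 arrays per comparison were closest to their own number. The number of arrays limits the precision.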
